A study of Arabidopsis thaliana with 21 samples.

Results

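HAT2 (AT5G47370) is a protein-coding gene on chromosome 5 of Arabidopsis thaliana that encodes a homeodomain-leucine zipper transcription factor of class II (HD-ZIP II). It was found by its locus in the table that pairs probe sets with genes, where it has 1 probe set among the 13513 tested probe sets paired with 1 gene. HD-ZIP II proteins bind DNA as dimers through the homeodomain and the adjacent leucine zipper, and several members of the class act as transcriptional repressors. HAT2 is known as an early auxin-induced gene, and its overexpression in Arabidopsis alters hypocotyl and root growth and the sensitivity to auxin. Auxin acts through the TIR1/AFB receptors, which bring about the degradation of Aux/IAA repressors and thereby free ARF transcription factors at the promoters of auxin-induced genes.

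Whole seedlings of the accession Col-0 were profiled on ATH1 arrays after 7 days in the light in liquid culture and 1 h of treatment. The groups were 5 µM indole-3-acetic acid (IAA, the main natural auxin) together with 10 µM Compound A (n = 3), IAA together with 10 µM Compound B (n = 3), IAA alone (n = 4), Compound A alone (n = 4), Compound B alone (n = 3) and the solvent DMSO as the negative control (n = 4). The study title describes a search for inhibitors of auxin transcriptional activation, and the design asks whether each compound alters the response to IAA. The array sheets describe medium of 0.5 MS strength with 1.5% sucrose for all groups. What kind of molecules A and B are is not stated in the labels.

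The deposited values are log2 signals, with array medians between 7.17 and 7.25 and pairwise correlations within groups of 0.978 to 0.998 (r across probe sets, which do not count as replicates). The sheet of 1 array, titled IAA 2, describes treatment with Compound B without IAA, against its title. In that array GRX480, a stress-induced glutaredoxin, had a signal of 5.18, while it lay between 10.26 and 10.66 in the 3 arrays of B and between 5.37 and 6.19 in the other 3 arrays of IAA. The 49 probe sets at least 8-fold higher in B than in DMSO, chosen on that comparison, averaged 6.31 in IAA 2. They averaged 9.87 to 10.44 in the arrays of B and 6.18 to 6.40 in the other arrays of IAA. The auxin-induced gene GH3.3 stood at 13.31 in IAA 2 and at 8.45 to 8.65 in B. By these signals the array was like the other arrays of IAA and unlike those of B. The title was followed, and the differences of HAT2 and of the early auxin-induced genes that use IAA alone are followed by their values without this array. Exact permutation tests, genes named for likeness, PHV, the neighbouring genes and the figures include it. Nothing in the labels tells whether replicate arrays stem from separate cultures. The p-values then cover only the spread between these arrays, which may be technical, and the number of arrays limits the precision.

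HAT2 was high in every array with IAA and low in every array without it. The log2 signal was 11.15, 11.23 and 11.36 in the arrays of IAA plus A. It was 11.61, 11.63 and 11.55 in those of IAA plus B, and 11.61, 11.66, 11.10 and 11.01 in those of IAA alone. Without IAA the signal was far lower in all groups, and it was lowest of all in B 1. The arrays of A alone gave 7.97, 8.18, 7.72 and 7.94. Those of B alone gave 7.51, 8.09 and 8.02, and those of DMSO gave 8.43, 8.52, 8.12 and 8.58. The 10 arrays with IAA therefore ranged from 11.01 to 11.66 and the 11 arrays without it from 7.51 to 8.58, with no overlap.

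**Figure D1:**
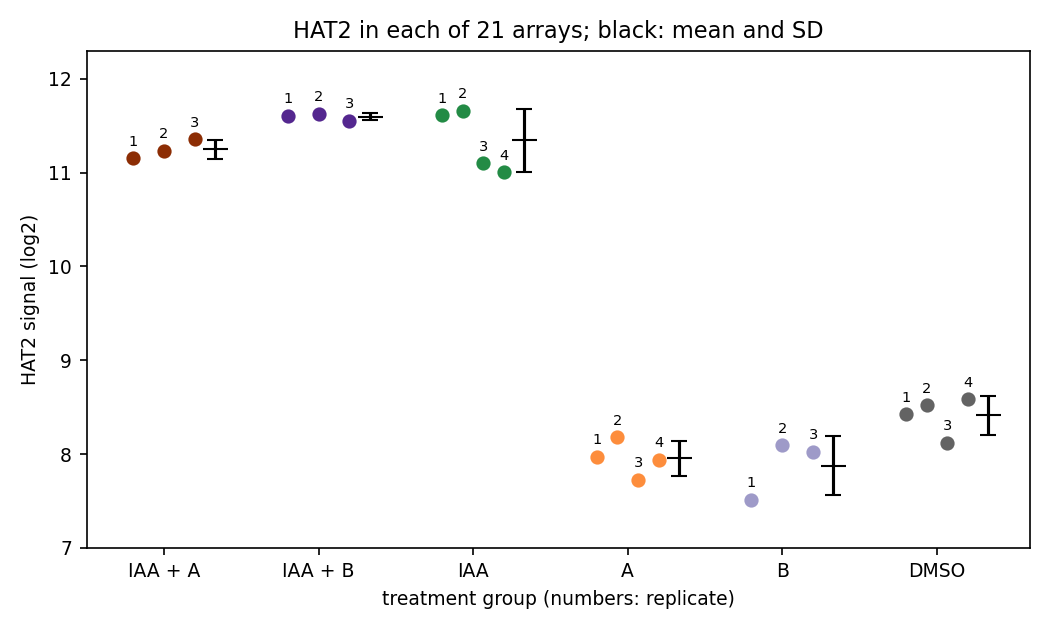
HAT2 signal (log2) in each array, by treatment group; each point is an array with its replicate number, and the black bar beside a group is its mean with the SD. The 10 arrays with IAA lie at or above 11.01 and the 11 arrays without IAA at or below 8.58.

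The mean signal was 11.25 ± 0.10 in IAA plus A, 11.60 ± 0.04 in IAA plus B, 11.34 ± 0.34 in IAA, 7.95 ± 0.19 in A, 7.88 ± 0.32 in B and 8.41 ± 0.20 in DMSO (log2, SD, n as above). In descending order the groups ran IAA plus B, IAA, IAA plus A, DMSO, A and B. Of the neighbours in this order that were compared, IAA plus B and IAA overlapped, as did IAA plus A and IAA, A and DMSO, and A and B. The spread of HAT2 was uneven between groups. Its SD in IAA exceeded that of 98.5% of tested probe sets in the same group (11.24 ± 0.33, n = 3, and 98.1% without IAA 2), and its SD in B that of 95.3%. In IAA plus B its SD exceeded that of only 8.59%. The wide spread in IAA came from arrays 1 and 2, above 11.6, and arrays 3 and 4, at 11.10 and 11.01. GH3.3, an auxin-conjugating enzyme gene, gave 13.23, 13.31, 12.79 and 12.84 in the same 4 arrays.

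IAA raised HAT2 in the absence of a compound. The rise over DMSO was 2.93 ± 0.15 log2 units (SE), or 7.63-fold (95% interval 6.13 to 9.50), with a limma adjusted p = 2.51e-10 over all tested probe sets, of which 1.43% passed as higher. All 4 arrays of IAA lay above all 4 arrays of DMSO, a separation in one or the other direction that 7.59% of probe sets showed. The exact two-sided permutation test of the means gave p = 0.0286, the smallest that groups of 4 allow, and 0.129 after adjustment over the 9 pairwise comparisons. HAT2 was the 12th largest rise of 22746 probe sets and ranked 4th by p-value. Without IAA 2 the difference was 2.83 and the 10th largest rise. Arrays of whole seedlings do not separate more cells with HAT2 transcript from more transcript per cell.

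The rise was also present with either compound. With A it was 3.295 ± 0.16 log2 units, from a mean of 11.25 in IAA plus A against 7.95 in A, or 9.82-fold (95% interval 7.75 to 12.4; limma adjusted p = 1.62e-10; 0.756% of probe sets passed as higher). With B it was 3.72 ± 0.17 log2 units, from 11.60 in IAA plus B against 7.88 in B, or 13.2-fold (95% interval 10.2 to 17.0; limma adjusted p = 8.96e-11; 1.14% passed as higher). Neither pair of groups overlapped, which held for 8.64% of probe sets with A and 14.8% with B. HAT2 ranked 8th among the rises with A and 5th among those with B. The exact permutation p was 0.0286 with A and 0.1 with B, each the smallest its group sizes allow (adjusted 0.129 and 0.15).

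Without IAA, HAT2 was somewhat lower with either compound than with the solvent. It averaged 7.88 in B against 8.41 in DMSO, and the 3 arrays of B lay below the 4 of DMSO, as groups of 16.9% of all probe sets did not overlap either. HAT2 fell by 0.53 ± 0.16 log2 units, a 1.45-fold lower signal, with a limma adjusted p = 0.0462 (4.77% of probe sets passed as lower). This call was not stable: the adjusted p ranged from 0.0235 to 0.286 over the alternatives and exceeded 0.05 without any one of 13 of the 21 arrays. Those 13 were DMSO 1, 2 and 4, A 1 and 4, B 1 and 3, and all 6 arrays of the combined treatments. The difference was -0.35 without B 1, the lowest array, and -0.31 with array weights.

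In A the mean was 7.95 against 8.41 in DMSO, a log2 difference of -0.46 ± 0.15 that did not pass (limma adjusted p = 0.0687; 2.94% of probe sets passed as lower and 8.39% in either direction). The groups overlapped, since A 2 at 8.18 lay above DMSO 3 at 8.12. The difference passed after quantile scaling (adjusted p = 0.0441), after subtraction of array medians (0.0498), and without DMSO 3 (0.0386), A 2 (0.0333) or B 1 (0.0421). The exact permutation p was 0.0571 for A and 0.0571 for B against DMSO (adjusted 0.129 each). Both comparisons share the DMSO arrays.

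Markers of root hairs were lower in B than in DMSO. Of 9 root genes listed, 3 had a paired probe set: EXPA7 and EXPA18, expansins of root hairs, and PYK10, a root beta-glucosidase. In B against DMSO, EXPA7 fell by 1.96 log2 units (limma adjusted p = 2.54e-06), EXPA18 fell by 2.50 (1.18e-05) and PYK10 differed by -0.16 (0.195). PYK10 lay between 13.28 and 13.66 in all arrays, near the highest signal of the data (13.91), which limits what its small difference can show. In A against DMSO, EXPA7, EXPA18 and PYK10 differed by 0.13, -0.25 and -0.094, and none passed (adjusted p = 0.767, 0.678 and 0.454). The mean log2 signal of the 3 genes ran from 9.57 to 10.33 in A, from 8.14 to 8.52 in B and from 9.32 to 10.13 in DMSO. HAT2 differed between A and B by 0.08 log2 units where EXPA7 and EXPA18 differed by 2.09 and 2.25. The part of the root markers in the lower HAT2 signal of B was not tested. None of the 6 shoot markers listed was paired with a probe set.

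In the presence of IAA, no difference of HAT2 between seedlings with and without a compound passed. IAA plus A averaged 11.25 against 11.34 in IAA, a log2 difference of -0.10 with a 95% interval of -0.44 to 0.24 (limma adjusted p = 0.792; 9.08% of probe sets passed in either direction). Without IAA 2 this difference was 0.0074. IAA plus B averaged 11.60 against 11.34 in IAA, a difference of 0.25 with an interval of -0.09 to 0.59 (adjusted p = 0.421; 8.01% passed), and 0.36 without IAA 2. In both cases the arrays of the combination lay within the range of the arrays of IAA alone. The exact permutation p was 0.6 and 0.4 (adjusted 0.675 and 0.514).

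The compounds were also set against each other at their shared dose of 10 µM and time of 1 h. Alone, A averaged 7.95 and B 7.88, a difference of 0.08 with a 95% interval of -0.27 to 0.42 (limma adjusted p = 0.835; 6.37% of probe sets passed in either direction; exact permutation p = 0.686). The sign of this difference turned without B 1 (-0.11). With IAA, the 3 arrays with A lay below the 3 arrays with B, at means of 11.25 and 11.60, a separation that 25.2% of probe sets showed. This difference of -0.35 had an interval of -0.71 to 0.02 and did not pass (adjusted p = 0.323; 2.82% of probe sets passed; exact permutation p = 0.1, the smallest possible). It passed when only these 6 arrays were fitted (adjusted p = 0.0491).

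Whether a compound changed the response to IAA itself was tested as an interaction, the IAA response with the compound minus that without it. For A the interaction was 0.36 ± 0.22 log2 units (95% interval -0.10 to 0.83; limma adjusted p = 0.999). For B it was 0.79 ± 0.23 (0.30 to 1.27), with an unadjusted p = 0.0029 that did not pass adjustment (0.574). Both estimates were positive, so that the point estimates gave no smaller IAA response with a compound than without. Each estimate is the compound's difference in the presence of IAA minus that in its absence. These were 0.25 and -0.53 for B, and -0.10 and -0.46 for A. The difference of B from DMSO was not stable, as given above, and without B 1 the interaction with B was 0.60. Without IAA 2 the estimates were 0.47 for A and 0.89 for B. Of all probe sets, 0.0484% passed for A (0.044% as lower) and 0.0132% for B. The IAA response with A minus that with B was -0.42 ± 0.24 (-0.92 to 0.08; adjusted p = 1.00), a comparison in which 0 probe sets passed in limma and 782 had an unadjusted p below 0.05.

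**Figure D2:**
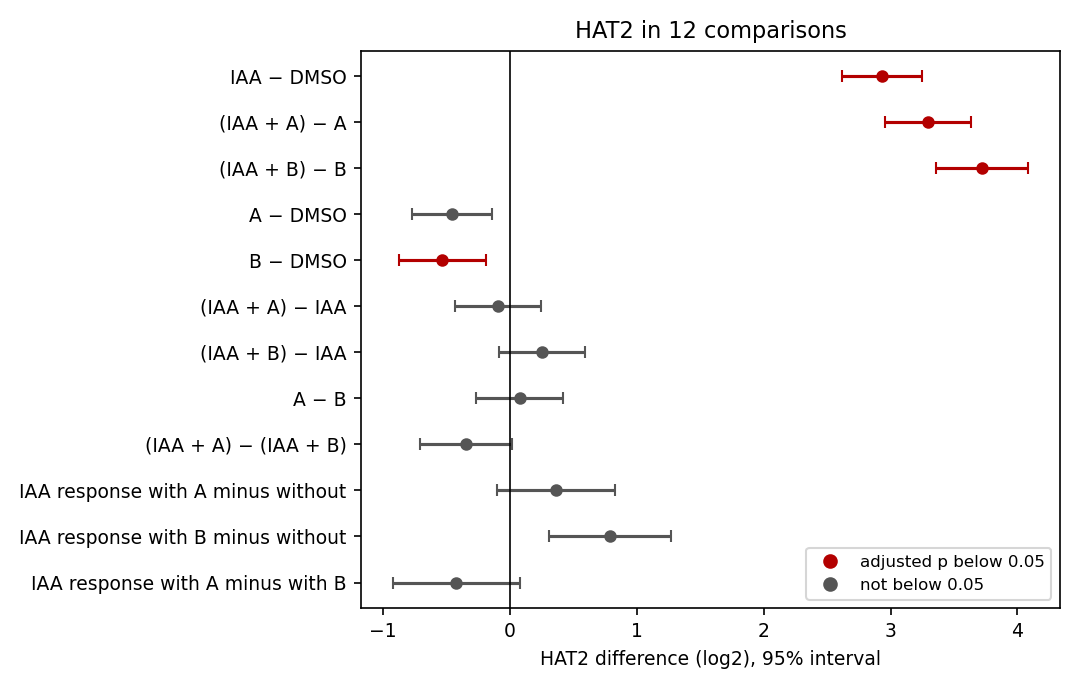
Differences of HAT2 (log2, first group minus second) with unadjusted 95% intervals from the linear model, for 9 pairs of groups and 3 differences between IAA responses; red marks an adjusted p below 0.05. The 3 responses to IAA lie between 2.93 and 3.72, and B against DMSO is the only other comparison that passed.

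The IAA response of HAT2 was set beside that of other probe sets raised by IAA. Of the 128 probe sets at least 2-fold higher in IAA than in DMSO and past the threshold, HAT2 ranked 12th by its rise, and this set was chosen on that comparison (110 probe sets without IAA 2). The groups with a compound entered the choice only through the estimate of the spread, which all arrays share. For IAA against DMSO the median of the set was 1.53 log2 units (quartiles 1.21 and 2.07), where HAT2 stood at 2.93. A set chosen on its rise in 1 comparison tends to have smaller medians in the others. For IAA plus A against A the median of the set was 1.29 log2 units (quartiles 0.62 and 2.20), where HAT2 stood at 3.295 and ranked 8th. For IAA plus B against B the median was 1.56 (quartiles 0.84 and 2.45), where HAT2 stood at 3.72 and ranked 5th. With the set chosen without IAA 2 the medians were 1.504 and 1.75 and the ranks of HAT2 again 8th and 5th.

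A list of 25 early auxin-induced genes had 8 members with a paired probe set. The list was chosen for induction by auxin, with earlier results of these data known. Its counts with IAA are therefore a description and not an independent test. Of these, 7 passed as higher in IAA than in DMSO (1.43% of all probe sets did), 7 in IAA plus A than in A (0.756%) and 8 in IAA plus B than in B (1.14%), with median differences of 3.08, 2.18 and 2.48 log2 units, while the medians over all probe sets were between -0.021 and -0.0033. GH3.3 rose by 4.82 ± 0.13 with A, 4.46 ± 0.14 with B and 4.91 ± 0.12 without a compound. IAA29, an Aux/IAA repressor gene, rose by 3.77 ± 0.23, 4.19 ± 0.25 and 3.75 ± 0.22 in the same order. GH3.5, a gene of the same enzyme family, rose by 2.37 ± 0.18, 3.22 ± 0.19 and 2.95 ± 0.17. LBD29, a transcription factor gene of lateral root initiation, had a smaller rise with either compound than without, of 1.20 ± 0.23 with A, 2.39 ± 0.25 with B and 3.90 ± 0.22 without a compound. The interaction of LBD29 with A was -2.70 ± 0.32 (limma adjusted p = 0.00118), against 0.36 ± 0.22 for HAT2. With B it was -1.51 ± 0.33 and did not pass (0.243). Without IAA 2, 7 of the 8 genes passed as higher in IAA than in DMSO, with a median difference of 2.90. The rises were then 4.82 for GH3.3, 3.65 for IAA29, 2.81 for GH3.5 and 3.85 for LBD29. The interaction of LBD29 was then -2.65 with A (limma adjusted p = 0.00341) and -1.46 with B (0.356). The rise of LBD29 with A did not pass without IAA plus A 3 (adjusted p = 0.0807).

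**Figure D3:**
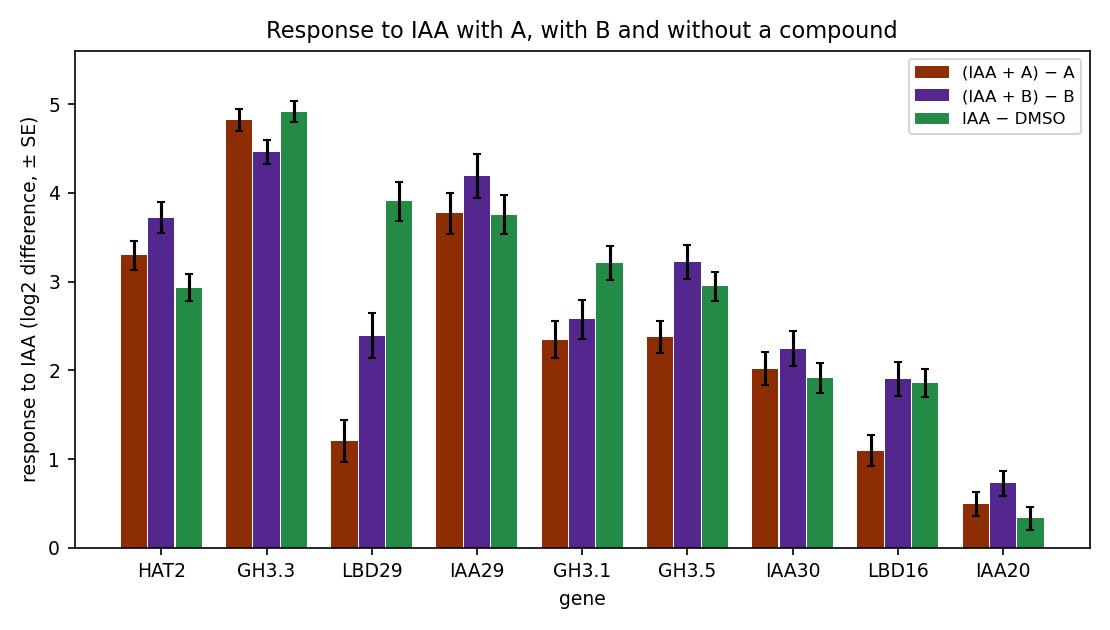
Response to IAA (log2 difference with SE from the linear model) of HAT2 and the 8 measured genes of the early auxin-induced list, with A (left bar), with B (middle bar) and without a compound (right bar). For HAT2 the bars stand at 3.295, 3.72 and 2.93, and for LBD29 at 1.20, 2.39 and 3.90.

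Set against IAA alone, 4 of the 8 genes passed as lower in IAA plus A and 0 as higher (limma; 4.3% of all probe sets passed as lower), with a median difference of -0.47 log2 units. Without IAA 2, 2 passed as lower and the median was -0.35. In IAA plus B, 1 passed as lower and 1 as higher (4.33% and 3.67% of all probe sets), with a median of 0.06 (also 1 and 1 without IAA 2, with a median of 0.16). HAT2 was in neither comparison among the genes past the threshold.

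With no IAA, none of the 8 early auxin-induced genes passed in A against DMSO (limma; 8.39% of all probe sets passed), where 1 of the 8 and 4927 of all 22746 probe sets had an unadjusted p below 0.05, and in B against DMSO 1 passed as higher and 1 as lower (3.99% and 4.77% of all probe sets). The higher one was GH3.3, at 0.41 ± 0.13 (adjusted p = 0.0486), and no listed gene passed as higher in 16 of 28 alternatives. The lower one was GH3.5, which fell by 0.79 ± 0.18 (0.00661). HAT2, at -0.53, thus had the direction of GH3.5.

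The genes whose pattern was most like that of HAT2 were taken by Pearson's r of the log2 signal over the 21 arrays, as a description. These arrays share their treatments, so that a gene raised by IAA to a like extent in all 3 settings tends to have a high r. Of 13512 other probe sets paired with 1 gene, 28 had an r of at least 0.9, and the median r was -0.07. The 8 highest were AT2G18010 (the small auxin-up RNA SAUR10, r = 0.990), IAA29 (0.985), AT3G50340 (0.984), GH3.3 (0.983), AT5G62280 (0.975), GH3.5 (0.968), AT1G65920 (0.963) and GH3.1 (0.963). Taken on the deviations from the group means, where the treatment is removed, the r of these 8 with HAT2 ran from 0.29 to 0.59.

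Among these genes AT2G18010 was also closest to HAT2 in size, with a root mean square difference of 0.24 log2 units between both profiles, each centred on its own mean. It rose by 3.21 with A, 3.65 with B and 3.17 without a compound, and its differences from DMSO were -0.42 in A and -0.28 in B, which did not pass (limma adjusted p = 0.213 and 0.491). AT5G62280 had a like order of responses, with 2.20 with A, 2.91 with B and 1.77 without a compound. GH3.1 ran the other way, with 2.34 and 2.57 with the compounds and 3.21 without. Of the 8 genes, GH3.3 and GH3.5 were the only ones that passed in B against DMSO, where 3.99% of all probe sets passed as higher and 4.77% as lower.

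**Figure D4:**
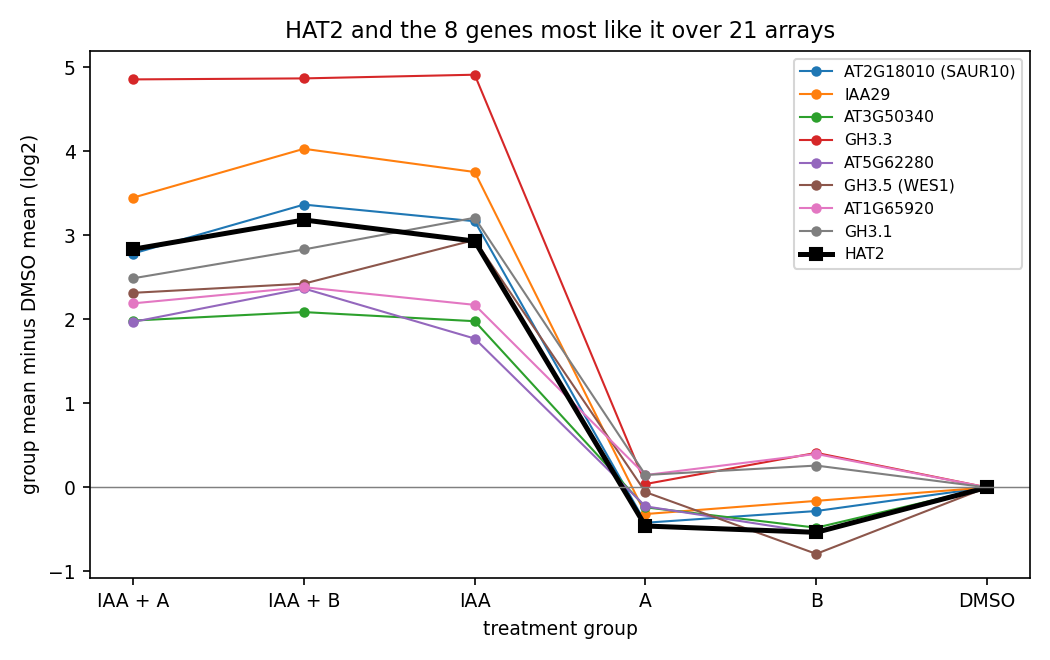
Group means minus the DMSO mean (log2) of HAT2 (black squares) and of the 8 genes with the highest Pearson's r with it over the 21 arrays; lines only join the points of a gene. HAT2 stands at -0.46 in A and -0.53 in B, where GH3.3 stands at 0.04 and 0.41.

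HAT2 was the only one of the 10 listed HD-ZIP II genes with a paired probe set, so the response of its close relatives was not analysed here. From the other HD-ZIP classes, PHV, a class III gene of leaf polarity, had a paired probe set, and none of the 17 class I and 16 class IV genes had one in the annotation table used here. PHV differed by 0.06 with A, by 0.10 with B and by 0.08 without a compound in response to IAA, and it passed in none of the 12 comparisons. None of the listed auxin receptors (6 genes), ARF factors (15), TOPLESS corepressors (5) or shade avoidance and light genes (18) had a paired probe set.

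The genes beside HAT2 on the chromosome were also read. AT5G47360, its nearest annotated neighbour on one side, differed by 0.07 ± 0.09 log2 units in IAA against DMSO (limma adjusted p = 0.844), and its r with HAT2 over the 21 arrays was -0.03. On the other side the nearest measured gene was AT5G47380, with 2 annotated non-coding genes between. AT5G47380 was higher by 0.47 ± 0.15 with A, 0.62 ± 0.16 with B and 0.39 ± 0.14 without a compound in response to IAA, none of which passed (adjusted p = 0.269, 0.0829 and 0.246). Its r with HAT2 was 0.80.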

How the data were processed

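The values used are the log2 signals that the authors deposited for 21 arrays. The submitters' labels do not name the summarisation or scaling behind them. No further transformation, pseudocount or filter was applied. Array controls (64 of 22810 probe sets) were dropped. Among the 22746 probe sets tested, 13513 had 1 gene in the supplied annotation table, 503 had several and 8730 had none; symbols came from the RefSeq gene table. The array files name 1 chip lot and no scan or hybridisation batch. Group means were estimated over all arrays and probe sets with limma 3.58.1 in R 4.3.3, with variances moderated along the intensity trend. Tests were two-sided and p-values adjusted by the Benjamini-Hochberg method over all tested probe sets, at 0.05. Single pairs were also compared by exact permutation. The model code was run on simulated data with independent errors, as a check of the code and not of the calls reported here.

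HAT2 and all gene lists were chosen with earlier results of these data known. Genes named were HAT2, HD-ZIP II members, the 8 most correlated genes, up to 4 called members (or 2 of a list with none called) of each other list, all measured root markers, and HAT2's neighbours. Alternatives were quantile scaling, median subtraction, the upper 60% of probe sets by signal, only the arrays compared, no intensity trend, array weights, a replicate block, leaving out each array, and other measures of likeness.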

Additional observations from a re-analysis of the deposited data

How the results depend on the processing

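Of 336 HAT2 values recomputed under 28 alternatives for each of 12 comparisons, 312 kept their direction and side of the threshold, including all values of the 3 IAA responses, of IAA plus B against IAA and of the 3 interaction comparisons. HAT2 in A against DMSO passed at -0.50 after quantile scaling and -0.49 after median subtraction, and ran from -0.56 to -0.38 when 1 array was left out. In B against DMSO it no longer passed at -0.53 with only these arrays or -0.31 with array weights, and ran from -0.64 to -0.35. In IAA plus A against IAA the range was -0.21 to 0.0074. A against B was -0.065 with array weights and ran from -0.11 to 0.18. IAA plus A against IAA plus B passed at -0.35 with only these arrays. The cause of these changes was not tested.

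The counts of probe sets past the threshold, which give the background shares, moved more. With only the arrays compared they were 212 (435 in the reported fit) for IAA, 881 (1909) for A and 1080 (1991) for B against DMSO, 4661 (2065) for IAA plus A and 2862 (1821) for IAA plus B against IAA, 602 (1448) for A against B, 6 (11) and 0 (3) for the interactions with A and B, and 2 (0) for their difference. With array weights they were 3678 for A against DMSO, 6670 and 3670 for IAA plus A and IAA plus B against IAA, 683 (189) for IAA plus A against A, 3310 for A against B, 3518 (642) for IAA plus A against IAA plus B, and 21 and 10 for the interactions. With the upper 60% of probe sets the interactions had 5 and 0, and with median subtraction that with B had 5. Leaving out 1 array gave 246 to 489 for IAA against DMSO (257 and 246 without IAA 1 and IAA 2), 1413 to 2992 for A against DMSO (2992 without A 2), 1225 to 2467 for IAA plus A against IAA (1225, 1264 and 1345 without IAA plus A 1, 2 and 3), 485 to 1776 for A against B (959 without A 1, 526 without B 2 and 485 without B 3), 243 to 810 for IAA plus A against IAA plus B (243 without IAA plus A 1 or 2, 413 and 279 without IAA plus B 2 and 3), 5 to 26 and 1 to 10 for the interactions, and 0 to 11 for their difference.

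With the replicate number as a block, HAT2 stood at 2.93 in IAA against DMSO, -0.46 (adjusted p = 0.0547) in A and -0.56 (0.0338) in B against DMSO, and no HAT2 call changed; the interaction counts were 19 for A and 7 for B. Same-numbered arrays of different groups correlated from -0.43 to 0.54 (48 pairs, median 0.03) in their deviations from the group means. Differently numbered ones correlated from -0.57 to 0.53 (135 pairs, median -0.03). Same-numbered pairs reached below 0, which cannot exclude pairing, since the noise of single arrays also enters these correlations. The labels give no shared culture or day. The numbers were therefore not taken to pair the arrays. For 11 of 21 arrays the best correlate had the same number, although same-numbered pairs were the fewer (48 against 135). This is a hint of pairing from the data and not from the design. A block for chip lot was not run, since all arrays name the same lot. Of the 8 genes most like HAT2, 5 were among the top 8 within the upper 60% of probe sets, which leaves out the dim ones, 4 with r over the group means, and 6 to 8 when 1 array was left out.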
